A study of Macaca fascicularis and Mus musculus with 42 samples.

Results

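Cadherins, claudins and the alpha and beta integrin subunits are the families that hold cells to each other and to the extracellular matrix. They were taken from a study of primordial germ cell-like cells made from embryonic stem cells (ESC) of the cynomolgus monkey, Macaca fascicularis. The members were all entries of the monkey table with the symbols CDH, CLDN or ITGB followed by a number, or ITGA followed by a number or letters, which gave 73 members of 26018 entries: 23 cadherins, 24 claudins, 18 alpha integrins and 8 beta integrins. The same rule in the mouse table found 72 members of 34896 entries.

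The study holds 42 bulk libraries, 38 of monkey and 4 of mouse, read at the 3′ ends of transcripts from 1 ng of total RNA. Induced monkey cells all came from the line 656BTAG42 in the libraries used here, which carries Blimp1-tdTomato (BT) and TFAP2C-EGFP (AG), reporters of the germ cell regulators PRDM1 and TFAP2C. Aggregates received BMP4, SCF, EGF, LIF and Y27632, either in GMEM with KSR (GK15) or in Advanced RPMI1640 with B27 (aRB27). The labels give 3 kinds of induced cells: BT single positive cells, AG mid positive cells and cells positive for both (BTAG). BT single cells came from aRB27 at day 2 (1 library) and day 4 (2 libraries), and AG mid cells from aRB27 at day 2 and GK15 at day 4 (1 library each). BTAG cells came from aRB27 at day 2 (2 libraries), day 4 (2 libraries) and day 6 (3 libraries), and from GK15 at day 2 (1 library), day 4 (1 library), day 6 (2 libraries), day 8 (2 libraries) and day 10 (2 libraries). Undifferentiated ESC of the reporter lines gave 4 libraries, 3 of 656BTAG42 and 1 of 656BTAG63. ESC without transgenes gave 5 libraries, 2 of the line CMK6 and 1 each of the lines 656, 681F and 22. All ESC were labelled with the medium AITS+IF20, which holds bFGF and IWR1. Mouse cells of the line R8, which carries Blimp1-membraneVenus and Dppa3-ECFP, were first made epiblast-like and then induced in the GK15 medium with the same agents, with 2 libraries at day 6 and 2 at day 4.

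Classical cadherins join neighbouring cells through calcium-dependent contacts and are tied to actin by catenins. Claudins form the sealing or ion-selective strands of tight junctions between epithelial cells, and integrins pair as an alpha and a beta subunit to bind laminin, fibronectin, collagen and other matrix proteins. In mouse embryos and cultures, germ cells and pluripotent cells are known for E-cadherin, and migrating germ cells use beta 1 integrins.

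Values are RPM, in which the authors scaled the reads of an entry to the total of its library. The libraries used held about 1077000 to 6799000 reads, so that 1 read was worth 0.147 to 0.929 RPM and a level near 1 RPM stands for only a few reads. Because reads mark transcript ends and entries may differ in how their ends are annotated, levels are compared between groups for 1 gene and not between genes. A member was tested when it reached 10 RPM in at least 2 libraries of a fit, and a difference was called at a Benjamini-Hochberg adjusted p under 0.05 over all genes tested and a log2 difference of at least 1 on the log2(RPM + 1) scale, with limma. That scale understates changes of low genes. In bulk samples, fewer cells of a type and less RNA per cell cannot be told apart. The labels do not say that libraries of a group came from separate cultures, so the p-values measure only the spread between these libraries, which may be technical.

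Some libraries went against their labels, and 9 were left out of the values below. Among them, a reporter ESC library had 252.5 RPM of PRDM1, against 0 to 2.59 RPM in the 4 reporter ESC libraries used. The GK15 libraries labelled BTAG at day 2, day 4 and day 6 that were left out had 4.9, 0 and 0.5 RPM of PRDM1, while those used had 119.5 to 213.4 RPM. The left-out GK15 libraries labelled AG mid had 193.7 RPM at day 2 and 145.1 RPM at day 4, against 0.9 RPM in the GK15 AG mid library used. The remaining 3, from aRB27 at days 6, 8 and 10, had 135.2 to 194.4 RPM, a level within that of the BTAG libraries used. The choice of libraries was made with values of these data known, and counts with every library as labelled stand beside those it changes. A list of 8 germ cell markers, among them PRDM1, TFAP2C, SOX17 and NANOS3, summed to 2501 to 3968 RPM over the BTAG libraries used, against 101.1 to 279.1 RPM over the reporter ESC. Since PRDM1 entered the choice of libraries and TFAP2C is a sorting reporter, these sums are no independent check of the labels.

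Of the 73 monkey members, 24 passed the filter in the fit of the reporter lines: 8 cadherins, 5 claudins, 9 alpha and 2 beta integrins. Of the rest, 12 were listed at 0 in all 29 monkey libraries used and 15 stayed above 0 but under 3 RPM in each. BTAG cells at day 6 in GK15 differed from reporter ESC in 10 of the 24, with 4 higher and 6 lower, while 24.8% of all 10701 genes tested were called, 14% higher and 10.8% lower. At day 6 in aRB27 12 of 24 were called, 5 higher and 7 lower, against 25.9% of all genes, 12.8% higher and 13.1% lower. At day 2, over both media, 8 of 24 were called, 6 higher and 2 lower, against 16% of all genes, 10.5% higher and 5.51% lower. At days 8 and 10 in GK15 12 of 24 were called, 4 higher and 8 lower, against 31.1% of all genes, 15.4% higher and 15.7% lower. With every library as labelled, limma called 0 members, as 0 of all genes, for GK15 day 6, where 8 members had an unadjusted p under 0.05. It called 1, CLDN11, for day 2, 9 for aRB27 day 6 and 12 for GK15 days 8 and 10. Of all genes, 1.24%, 19% and 24.7% were then called. The medians of the log2 differences stayed near those of all genes: 0.02 against 0.01 in GK15 at day 6, -0.18 against -0.08 in aRB27 at day 6, -0.03 against 0.05 at day 2, and -0.29 against -0.09 in GK15 at days 8 and 10. A filter at a mean of 20 RPM left untested every member called higher at day 6 or at days 8 and 10. ITGA1, CDH7, CDH26, ITGA9 and CLDN11 averaged 19.5, 15.5, 8.55, 7.68 and 4.125 RPM over the 24 libraries of the fit. With this filter only lower members were called: 5 in GK15 at day 6, 6 in aRB27 at day 6, and 7 at days 8 and 10. Of all genes tested, 21.2%, 22.3% and 26.1% were then called. With a pseudocount of 10, 0 were higher and 6 lower in aRB27 at day 6, against 15.2% of all genes called. These comparisons with reporter ESC share the same 4 ESC libraries.

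**Figure D1:**
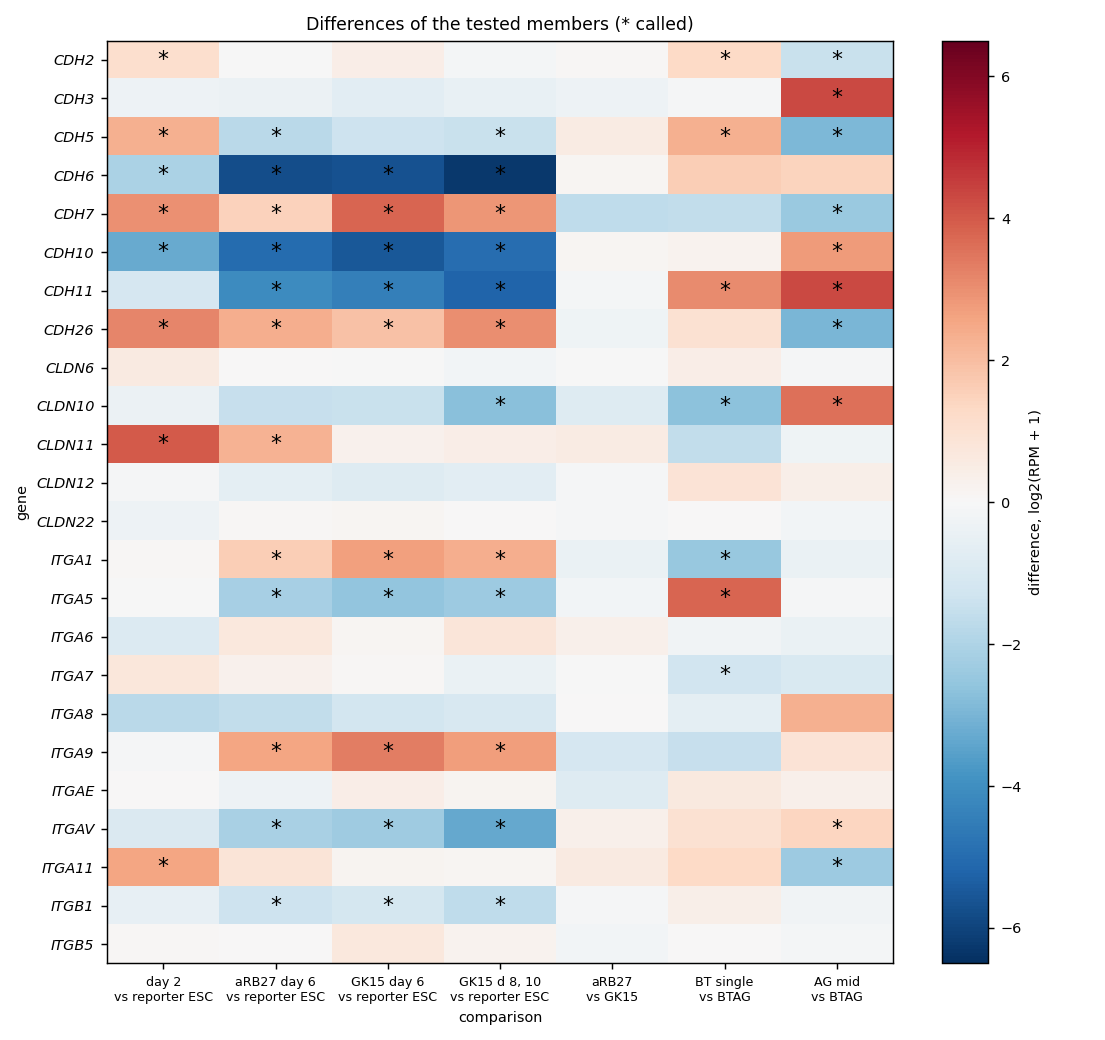
Log2 differences on the log2(RPM + 1) scale (colour) for the 24 monkey members tested, by comparison (columns), with the group named first minus the group named after it; a star marks a called difference. CDH6, CDH10 and CDH11 are lower in the later day comparisons with ESC, and the column for aRB27 against GK15 has no star.

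Among the classical cadherins of the first type, CDH1, the E-cadherin of epithelia and pluripotent cells, had few reads in the monkey table and never passed the filter in the reporter lines. It was listed at 0 in 9 of the 15 BTAG libraries and reached 1.21 RPM in the others, against 0.44 to 4.32 RPM in reporter ESC. Transgene-free ESC had 41.9, 23.5, 0.98, 22.5 and 2.85 RPM of CDH1, and the reporter minus transgene-free difference was not called (-2.39 ± 0.88, limma adjusted p = 0.278). The AG mid libraries had 4.13 RPM at day 2 in aRB27 and 8.96 RPM at day 4 in GK15, above every BTAG library. CDH1 and CDH3 lie next to each other in the RefSeq annotation of T2T-MFA8v1.1, which need not be the build the authors used. How the 3′ end of CDH1 was annotated for the counting could not be examined, so its few reads need not mean little CDH1 RNA.

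CDH2, the N-cadherin of mesenchymal and neural cells, was present in every library, and among BTAG cells highest in the aRB27 libraries of day 2. At day 2 it had 585.5 and 345.5 RPM in aRB27 and 263.1 RPM in GK15, against 145.9, 126.0, 129.2 and 275.8 RPM in reporter ESC. The ranges overlapped through 1 ESC library. The log2 difference was 1.10 ± 0.27 (limma, adjusted p = 0.00658), and it dropped under the size threshold, to 0.91, without aRB27 BTAG day 2 replicate 1, and to 0.99 or 1.00 without reporter ESC replicate 2 or 3. The CDH2 difference was also under it with the title code as a covariate (0.92), with DESeq2 (0.98) and with every library as labelled (0.57, limma adjusted p = 0.404). From day 2 to day 10 CDH2 fell by 0.19 ± 0.04 log2 units per day (limma, adjusted p = 0.00185). With every library as labelled this slope was -0.08 and was not called (limma, adjusted p = 0.221). At day 10 in GK15 it had 148.8 and 143.3 RPM, within the range of reporter ESC.

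CDH3, the P-cadherin of placenta and basal epithelia, was called in none of the ESC comparisons. It had 3.33 to 17.5 RPM over the 15 BTAG libraries, against 8.09 to 20.2 RPM in reporter ESC and 22.1 to 73.3 RPM in transgene-free ESC.

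The type II cadherins, which lack some features of the classical binding motif and mark particular neurons and mesenchymal cells, had the largest falls among the members in each comparison with ESC. CDH6, also known from kidney tubules, had 1.25 and 0 RPM in GK15 BTAG cells at day 6 and 0, 1.76 and 0 RPM in aRB27, against 70.8, 58.3, 62.4 and 126.6 RPM in reporter ESC. The groups lay far apart. The log2 differences of CDH6 were -5.67 ± 0.50 in GK15 and -5.77 ± 0.44 in aRB27 (limma, adjusted p = 6.02e-08 and 7.43e-09). The fall was smaller at day 2, by 2.05 ± 0.46 (limma, adjusted p = 0.00272), when 11.1, 20.0 and 20.45 RPM were left, and CDH6 was listed at 0 in all 4 libraries of days 8 and 10.

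CDH10, a cadherin of the brain, had 0.42 and 0 RPM in GK15 BTAG cells at day 6, against 38.7, 35.0, 95.8 and 57.7 RPM in reporter ESC. The log2 differences were -5.48 ± 0.74 in GK15 (limma, adjusted p = 1.17e-05) and -4.99 ± 0.66 in aRB27 (limma, adjusted p = 6.8e-06). Of the CDH10 level, 8.76, 1.46 and 5.11 RPM were left at day 2, a fall by 3.29 ± 0.68 (limma, adjusted p = 0.00153). The list of neural markers summed to 6.66 to 12.7 RPM in GK15 BTAG cells and 8.89 to 15.2 RPM in aRB27 at day 6, and to 209.2 to 247.2 RPM in BTAG cells at day 2, against 178.5 to 584.5 RPM in reporter ESC, and its part in the CDH6 and CDH10 differences was not tested. In RefSeq's T2T-MFA8v1.1 annotation CDH9 is the gene between CDH10 and CDH6. CDH9 itself did not exceed 2.33 RPM in any library used.

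CDH11, a cadherin of mesenchyme and bone-forming cells, was called lower from day 6. It had 31.6, 30.2 and 32.5 RPM at day 2 in BTAG cells, where the difference was not called, then 1.25 and 3.62 RPM at day 6 in GK15 and 0.69 and 0.75 RPM at day 10, against 76.9, 79.4, 29.0 and 128.2 RPM in reporter ESC. The day 6 libraries lay below every reporter ESC library. The differences were -4.44 ± 0.76 at day 6 in GK15, -4.09 ± 0.67 at day 6 in aRB27 and -5.20 ± 0.62 at days 8 and 10 on the log2 scale (limma, adjusted p = 0.000158, 8.5e-05 and 1.41e-06). Over the days CDH11 fell by 0.59 ± 0.11 log2 units per day (limma, adjusted p = 0.00072).

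CDH5, the VE-cadherin of endothelial junctions, was high for a short time. At day 2 it had 79.5 and 45.8 RPM in aRB27 and 29.3 RPM in GK15, against 6.77, 15.97, 4.4 and 7.0 RPM in reporter ESC, with no overlap, and a log2 difference of 2.31 ± 0.48 (limma, adjusted p = 0.00159). By day 6 it had 1.27, 1.17 and 2.65 RPM in aRB27, each below every reporter ESC library, and a log2 difference of -1.73 ± 0.46 (limma, adjusted p = 0.00628). At days 8 and 10 in GK15 it fell by 1.46 ± 0.43, a call that was lost without GK15 BTAG day 10 replicate 2 (log2 difference -1.02, limma adjusted p = 0.0626). The span of CDH5 overlaps that of another protein-coding entry in the T2T-MFA8v1.1 annotation. No source names the strand setting of the counting, so whether the pair share reads is not known. The list of 7 endothelial markers summed to 64.3 to 118.9 RPM in the BTAG libraries of day 2 and to 17.3 to 47.95 RPM in those of day 4, and its part in the CDH5 level was not tested.

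CDH7 and CDH26 were called higher in all 4 comparisons with reporter ESC. CDH7, a type II cadherin of neural crest in chick, had 35.0 and 41.6 RPM in GK15 BTAG cells at day 6 and 9.73, 4.1 and 8.6 RPM in aRB27, against 1.91, 3.45, 1.32 and 1.08 RPM in reporter ESC. Neither medium overlapped with ESC. The log2 differences were 3.80 ± 0.62 in GK15 and 1.52 ± 0.55 in aRB27 (limma, adjusted p = 9.17e-05 and 0.0347). The aRB27 call was lost without any 1 of 5 libraries, namely aRB27 BTAG day 6 replicates 1 and 4 and reporter ESC replicates 1, 3 and 4, where the difference was 1.32 to 1.54 (limma, adjusted p 0.0585 to 0.128). CDH7 was called at day 2 as well, with 26.9, 16.6 and 20.45 RPM and a log2 difference of 2.95 ± 0.56 (limma, adjusted p = 0.000761).

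CDH26, a cadherin of epithelia that also binds integrins, had 22.8 and 15.1 RPM at day 10 and 7.43 and 12.5 RPM at day 8 in GK15, against 0.44, 1.29, 2.2 and 0 RPM in reporter ESC. The difference over both days was 3.004 ± 0.41 log2 units (limma, adjusted p = 7.61e-06). It was 3.19 ± 0.46 at day 2, 2.35 ± 0.45 in aRB27 at day 6 and 1.91 ± 0.51 in GK15 at day 6 (limma, adjusted p = 4.1e-05, 0.000361 and 0.00678). The GK15 day 6 call was lost without GK15 BTAG day 6 replicate 3 (1.52, limma adjusted p = 0.114). The spans of FAM217B and PPP1R3D overlap that of CDH26 in the T2T-MFA8v1.1 annotation, and whether they share reads is not known.

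**Figure D2:**
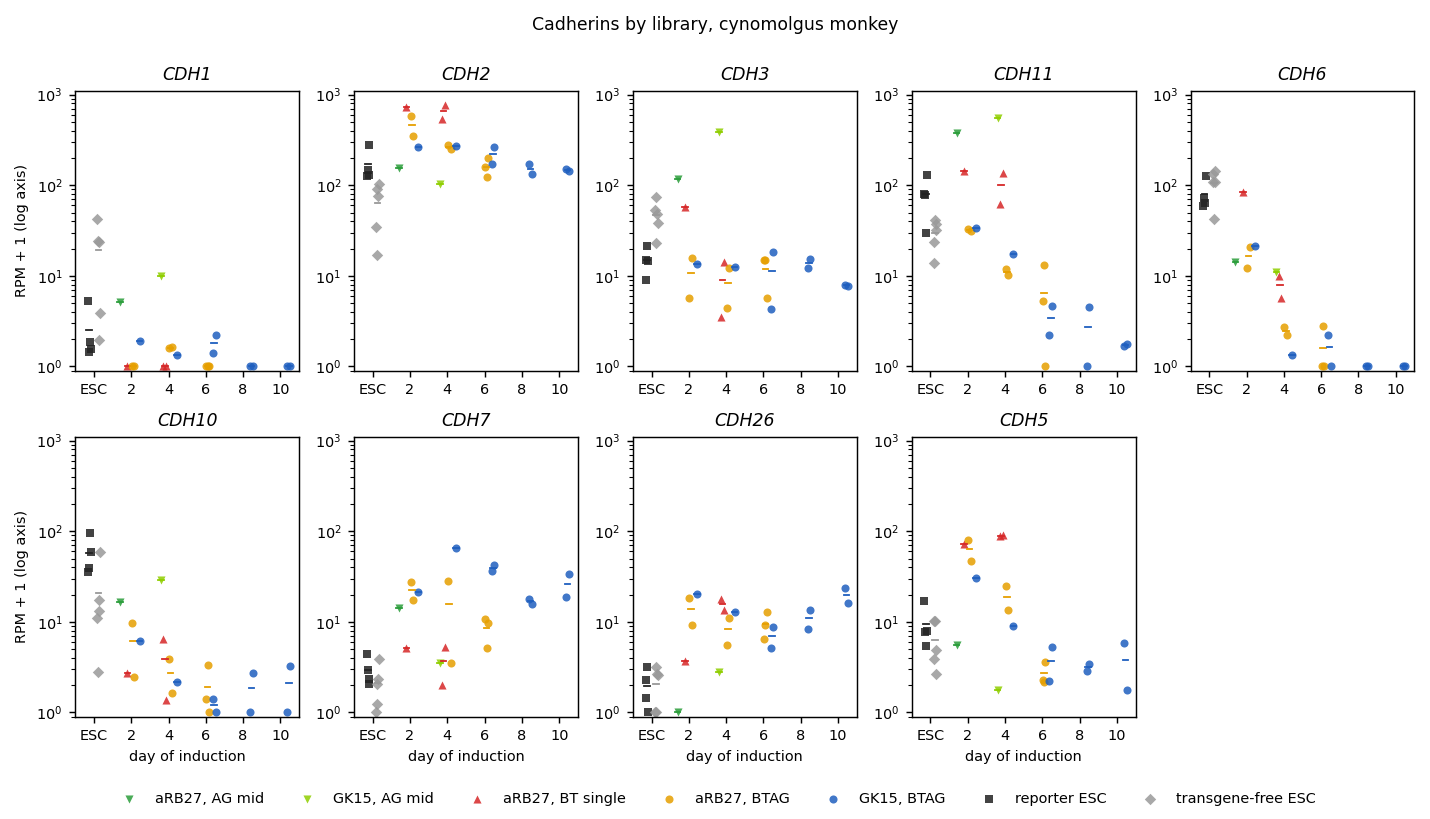
Levels of 9 cadherins by library (points) against the day of induction, as RPM + 1 on a log axis, with short lines for group means and colours for gate, medium and ESC kind. CDH6 lies at 0 to 1.76 RPM in the BTAG libraries of day 6, against 58.3 to 126.6 RPM in reporter ESC, and CDH3 and CDH11 are high in the AG mid libraries.

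Summed over the family, cadherins came to 201.7 ± 25.3 RPM in aRB27 BTAG cells at day 6 (SD, n = 3) and 285.4 ± 87.4 RPM in GK15 (SD, n = 2), against 415.9 ± 133.0 RPM in reporter ESC (SD, n = 4). Some other groups lay above reporter ESC on average, with 630.8 ± 198.7 RPM in aRB27 BTAG cells at day 2 (SD, n = 2), 1119 RPM in BT single cells at day 2 and 885.0 ± 226.0 RPM at day 4 (SD, n = 2), and 710.5 and 1101 RPM in AG mid cells at day 2 and day 4. Below it lay BTAG cells of aRB27 day 4 and of GK15 days 2, 4, 8 and 10, at 331.4, 410.0, 392.8, 203.4 and 213.9 RPM. Transgene-free ESC averaged 297.2 RPM. CDH2 made up 73.8% of the aRB27 day 2 BTAG sum, and CDH11 53.25% and 50.1% of the AG mid sums. Such sums and shares put different genes together, so they also depend on how the ends of each gene are annotated.

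Of the 5 claudins tested, CLDN10 and CLDN11 were the 2 called in a comparison with reporter ESC. CLDN6, a claudin of embryonic epithelia and pluripotent cells, had 38.3 to 88.3 RPM over the 15 BTAG libraries, against 59.3, 51.4, 43.1 and 78.1 RPM in reporter ESC, and the ranges overlapped. The slope of CLDN6 over the days was -0.99997 ± 0.30 log2 units per 8 days (limma, adjusted p = 0.02). It fell just short of the size threshold of 1 and was not called. CLDN12 had 31.6 to 78.4 RPM over BTAG libraries, and CLDN22 had 37.4 to 75.04 RPM, and neither was called in any comparison. CLDN12 overlaps CDK14 in the T2T-MFA8v1.1 annotation, CLDN22 lies beside CLDN24, and reads of close relatives could be split by the counting.

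CLDN11, the claudin of myelin and of the Sertoli cell barrier in the testis, rose early. At day 2 it had 5.26 and 15.6 RPM in aRB27 and 27.9 RPM in GK15, against 0, 0, 0.44 and 0 RPM in reporter ESC. The groups did not overlap, and the log2 difference was 3.97 ± 0.71 (limma, adjusted p = 0.000373). In aRB27 CLDN11 was still called at day 6, at 7.62, 1.76 and 5.29 RPM (log2 difference 2.28 ± 0.68, limma adjusted p = 0.013), a call lost without aRB27 BTAG day 6 replicate 1 (1.93, limma adjusted p = 0.0719). GK15 cells had 0.83 and 0 RPM at day 6. The slope over the days, -0.37 ± 0.12 log2 units per day (limma, adjusted p = 0.0327), missed the threshold without any 1 of 4 libraries, and was -0.16 without GK15 BTAG day 2 replicate 1 (limma, adjusted p = 0.449).

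CLDN10, an ion-selective claudin of kidney and glands, was lower at the end of the course. At day 10 it had 0 and 0.75 RPM and at day 8 1.86 and 1.54 RPM in GK15, against 10.6, 19.9, 16.3 and 4.31 RPM in reporter ESC. All 4 late libraries lay below ESC, and the log2 difference was -2.69 ± 0.62 (limma, adjusted p = 0.00147). The span of DZIP1 overlaps that of CLDN10 in the T2T-MFA8v1.1 annotation, and whether the pair share reads is not known. Other claudins known from epithelia or vessels had few reads: CLDN5 did not exceed 1.95 RPM and CLDN7 did not exceed 1.08 RPM, while CLDN3 and CLDN4 reached 10 RPM in 3 and 1 of the 29 libraries.

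**Figure D3:**
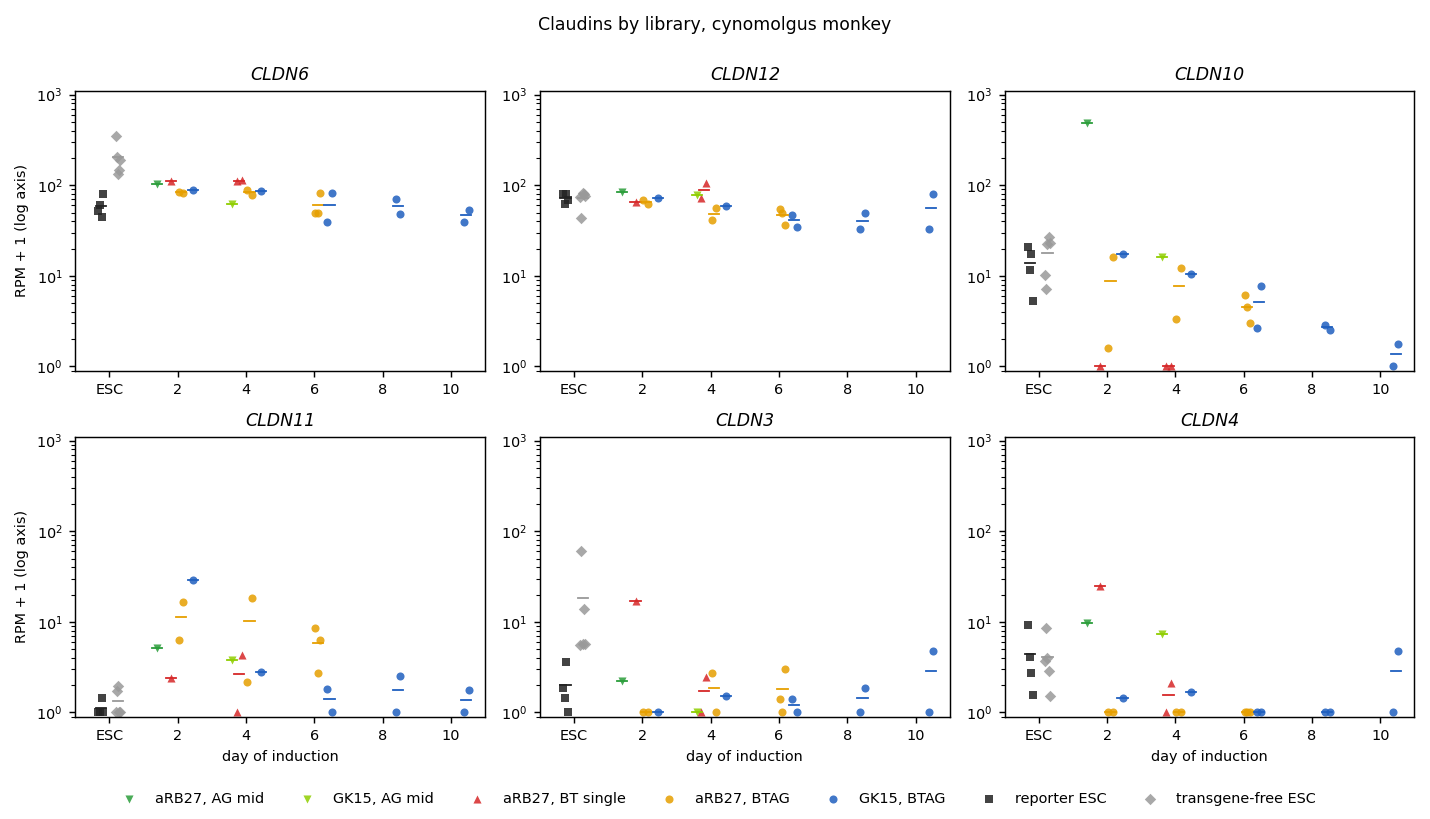
Levels of 6 claudins by library (points) against the day of induction, as RPM + 1 on a log axis, with short lines for group means. CLDN6 is highest in transgene-free ESC, at 132.6 to 345.0 RPM, and CLDN10 reaches 480.3 RPM in the AG mid library of aRB27 day 2.

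ITGB1, the beta subunit that pairs with most alpha subunits to bind laminin, fibronectin or collagen, was lower in BTAG cells from day 6. It had 244.4 and 277.9 RPM in GK15 BTAG cells at day 6, 239.9, 223.4 and 232.8 RPM in aRB27 at day 6, and 355.5, 610.6, 662.4 and 791.4 RPM in reporter ESC. Every day 6 library lay below every reporter ESC library. The log2 differences were -1.15 ± 0.24 in GK15 and -1.32 ± 0.21 in aRB27 at day 6, and -1.66 ± 0.19 at days 8 and 10 (limma, adjusted p = 0.000896, 5.56e-05 and 9.76e-07). ITGB1 fell by 0.18 ± 0.02 log2 units per day over the BTAG libraries (limma, adjusted p = 2.76e-05), to 185.5 and 134.2 RPM at day 10.

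ITGB5, the vitronectin-binding partner of ITGAV, was called in no comparison. It had 294.8 ± 63.6 RPM over the BTAG libraries (SD, n = 15), against 263.9 ± 61.8 RPM over all ESC (SD, n = 9). The day 6 libraries of GK15 had 443.1 and 334.0 RPM, above the 160.0 to 323.2 RPM of reporter ESC, and the ITGB5 difference missed both thresholds (0.67 ± 0.26, limma adjusted p = 0.0519). Its partner ITGAV had 22.1 and 30.7 RPM in GK15 and 23.7, 29.3 and 37.7 RPM in aRB27 at day 6, against 52.1, 143.3, 144.6 and 274.2 RPM in reporter ESC. The log2 differences of ITGAV were -2.29 ± 0.42 in GK15, -2.11 ± 0.37 in aRB27 and -3.33 ± 0.34 at days 8 and 10 (limma, adjusted p = 0.000318, 0.000172 and 2.13e-07). The slope of ITGAV was -0.32 ± 0.04 log2 units per day (limma, adjusted p = 1.48e-05), and no BTAG library of day 6 or later overlapped with reporter ESC.

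ITGA5, the alpha subunit of the fibronectin receptor, held its level at day 2 and then fell. It had 78.9 and 59.9 RPM in aRB27 and 70.2 RPM in GK15 at day 2, and 15.8 and 7.84 RPM in GK15 at day 6, against 59.9, 73.4, 64.2 and 84.6 RPM in reporter ESC. Day 2 lay within the ESC range, and day 6 below it. The day 6 differences were -2.54 ± 0.49 in GK15 and -2.15 ± 0.43 in aRB27 on the log2 scale (limma, adjusted p = 0.000507 and 0.000621). The slope of ITGA5, -0.33 ± 0.09 per day (limma, adjusted p = 0.0109), missed the threshold without GK15 BTAG day 2 replicate 1 (-0.28, limma adjusted p = 0.0897).

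ITGA6, the laminin-binding subunit found on many stem cells, ran the other way over the days. It had 93.5 and 157.9 RPM in aRB27 and 136.2 RPM in GK15 at day 2, 384.2, 463.2 and 339.3 RPM in aRB27 at day 6, and 551.6 and 316.0 RPM in GK15 at day 10. Reporter ESC had 168.3, 243.4, 273.0 and 311.4 RPM, so day 2 lay below and day 10 above the ESC range. ITGA6 rose by 0.27 ± 0.04 log2 units per day (limma, adjusted p = 0.000133) and was called in no comparison with ESC. ITGB4, which pairs with ITGA6 at epithelial anchoring contacts, reached 10 RPM in 1 library, with 19.4 and 8.3 RPM at day 10 in GK15.

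ITGA1, a collagen-binding subunit, rose with ITGA9, which binds tenascin and osteopontin. ITGA1 had 54.1 and 42.2 RPM in GK15 and 32.2, 19.9 and 17.2 RPM in aRB27 at day 6, against 9.12, 2.16, 9.23 and 9.16 RPM in reporter ESC, with no overlap. The log2 differences were 2.68 ± 0.45 in GK15 and 1.62 ± 0.39 in aRB27 (limma, adjusted p = 0.000112 and 0.00307). The span of PELO overlaps that of ITGA1 in the T2T-MFA8v1.1 annotation, and whether the 2 share reads is not known. ITGA9 had 17.1 and 23.5 RPM in GK15 and 12.7, 7.62 and 15.9 RPM in aRB27 at day 6, against 0, 2.16, 3.08 and 0.54 RPM in reporter ESC. Its log2 differences were 3.32 ± 0.65 and 2.58 ± 0.57 (limma, adjusted p = 0.000571 and 0.00149). At day 2 ITGA1 had 5.26, 8.77 and 6.97 RPM and ITGA9 0, 0.49 and 2.32 RPM, both within the ESC ranges. Their slopes, 0.27 ± 0.06 and 0.37 ± 0.11 log2 units per day (limma, adjusted p = 0.00357 and 0.0151), missed the threshold without GK15 BTAG day 2 replicate 1, at 0.19 and 0.36 (limma, adjusted p = 0.0735 and 0.078).

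ITGA11, another collagen-binding subunit, was called at day 2, at 4.09, 12.2 and 3.72 RPM in BTAG cells, against 0.15, 0, 0 and 0 RPM in reporter ESC (log2 difference 2.59 ± 0.60, limma adjusted p = 0.00358). By day 6 it had 0 to 1.76 RPM. ITGA7, a laminin-binding subunit of muscle, and ITGAE, the subunit with which lymphocytes bind E-cadherin, had 13.0 to 53.0 RPM and 13.4 to 40.8 RPM over the BTAG libraries and were called in no comparison with ESC. HASPIN overlaps ITGAE in the T2T-MFA8v1.1 annotation. ITGA8 was tested, but stayed under 5.3 RPM in every BTAG library. ITGA2, a collagen receptor subunit, did not exceed 7.13 RPM, ITGA3, a laminin receptor subunit, did not exceed 10.6 RPM, and ITGB3, the platelet and vitronectin receptor subunit, was listed at 0 in all 29 libraries.

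**Figure D4:**
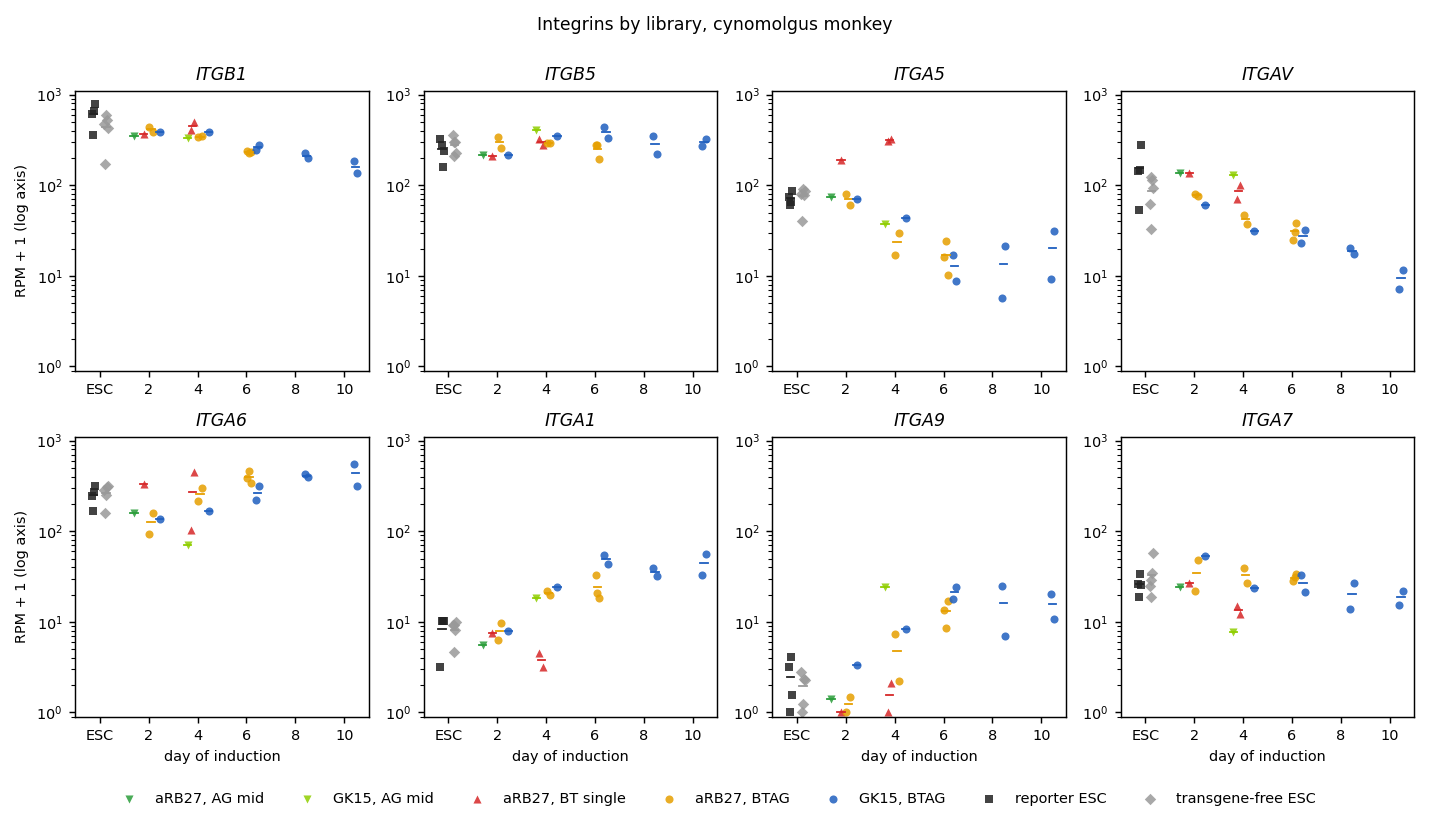
Levels of 8 integrin subunits by library (points) against the day of induction, as RPM + 1 on a log axis, with short lines for group means. ITGB1, ITGA5 and ITGAV are lower in the BTAG libraries of days 6 to 10 than in reporter ESC, ITGA1 and ITGA9 are higher, and ITGA5 reaches 303.1 and 323.1 RPM in the BT single libraries of day 4.

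Over the days 2 to 10 of BTAG cells, with the medium as a covariate, 12 of the 21 members tested had a slope past the threshold, 3 rising and 9 falling, while 19.4% of all 9826 genes were called, 7.14% rising and 12.2% falling. The rising members were ITGA1, ITGA6 and ITGA9. Those that fell were CDH2, CDH5, CDH6, CDH11, CLDN10, CLDN11, ITGA5, ITGAV and ITGB1, while the fall of CLDN6 stayed just under the size threshold. Days 8 and 10 came from GK15 alone, and only 1 library stood for GK15 at day 2. Without that library 6 of these slopes were not called, and those of CDH6 and CLDN10 were then -0.40 and -0.31 log2 units per day (limma, adjusted p = 0.104 and 0.136). The slope of CLDN10, -0.36 ± 0.11 (limma, adjusted p = 0.02), was also not called without aRB27 BTAG day 2 replicate 2 or GK15 BTAG day 10 replicate 1 (limma, adjusted p = 0.0516 and 0.0613).

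Between the media, over days 2, 4 and 6, none of 24 members was called with limma, edgeR or DESeq2, 3 had an unadjusted limma p under 0.05, and 0.0841% of all genes were called. The log2 differences, aRB27 minus GK15, nearest to the threshold were -0.85 ± 0.22 for ITGAE, -1.66 ± 0.47 for CDH7 and -1.07 ± 0.49 for ITGA9 (limma, adjusted p = 0.223, 0.288 and 0.699). CDH7 alone was called without aRB27 BTAG day 4 replicate 1. GK15 gave only 1 library at day 2 and 1 at day 4, which limits the test. At day 6 alone, a comparison chosen after the data were seen, CDH7 had 9.73, 4.1 and 8.6 RPM in aRB27 and 35.0 and 41.6 RPM in GK15, and again no member was called with limma, 5 had an unadjusted p under 0.05, and 0.159% of all genes were called.

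BT single cells at day 4 in aRB27 differed from BTAG cells of the same medium and day in 7 of 24 members, with 4 higher and 3 lower, and 15.1% of all genes were called, 8.05% higher and 7.08% lower. ITGA5 had 303.1 and 323.1 RPM in BT single cells, against 16.1 and 28.7 RPM in BTAG cells. The gates lay more than a factor of 10 apart, and the log2 difference was 3.80 ± 0.57 (limma, adjusted p = 8.19e-05). ITGA1 ran the other way, with 3.48 and 2.17 RPM in BT single cells and 20.7 and 18.7 RPM in BTAG cells (log2 difference -2.46 ± 0.51, limma adjusted p = 0.00206). With each library of these gates left out in turn, the calls of ITGA5 and ITGA1 held and those of the other 5 members did not.

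Those 5 were cadherins, a claudin and ITGA7. CDH2 had 531.6 and 774.9 RPM in BT single cells and 277.0 and 250.3 RPM in BTAG cells, a log2 difference of 1.28 ± 0.35 (limma, adjusted p = 0.0136). CDH11 had 60.7 and 136.8 RPM against 10.9 and 9.34 RPM, and CDH5 had 87.1 and 89.7 RPM against 23.6 and 12.5 RPM, in BT single and BTAG cells. Their log2 differences were 3.05 ± 0.88 and 2.30 ± 0.61 (limma, adjusted p = 0.0205 and 0.0119). CLDN10 was listed at 0 in both BT single libraries, against 2.3 and 11.2 RPM in BTAG cells, and ITGA7 had 13.9 and 11.2 RPM in BT single cells against 38.0 and 25.5 RPM in BTAG cells (log2 difference -1.25 ± 0.41). Their adjusted p were 0.0439 and 0.044 (limma). Leaving out aRB27 BTAG day 4 replicate 2 brought the adjusted p to 0.104 for CDH11, 0.373 for CLDN10, 0.13 for CDH5, 0.0885 for CDH2 and 0.0623 for ITGA7 (limma). Without aRB27 BT single day 4 replicate 2 they were 0.18, 0.148, 0.0662, 0.152 and 0.213 (limma). Calls were also lost without replicate 1 of BTAG (CDH11, CDH2 and ITGA7) and replicate 1 of BT single (CLDN10, CDH5 and ITGA7), at adjusted p 0.0536 to 0.286 (limma). With every library as labelled, 1 member, ITGA5, was called, against 3.68% of all genes.

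The BT single gate differed in markers of other cell types as well. The 10 endoderm markers summed to 1754 and 3719 RPM in the BT single libraries of day 4, with 7 of 10 at a mean of 10 RPM or more, against 74.3 and 150.7 RPM in BTAG cells. CER1 averaged 1649 RPM and GATA6 402.8 RPM in BT single cells. The 7 endothelial markers summed to 114.0 and 393.6 RPM in BT single cells, against 17.3 and 47.95 RPM in BTAG cells, with ERG and EMCN listed at 0. The germ cell list summed to 1483 and 1532 RPM in BT single cells, against 3066 and 3216 RPM in BTAG cells. The part of these markers in the ITGA5, CDH11 and CDH5 differences was not tested. At day 2 the lone BT single library, which was not tested alone, had 190.0 RPM of ITGA5, 83.7 RPM of CDH6 and 735.6 RPM of CDH2.

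AG mid cells differed from BTAG cells of the same medium and day in 10 of 24 members, 5 higher and 5 lower, against 11.1% of all genes, 5.05% higher and 6.02% lower. CDH3 had 116.4 RPM in AG mid cells against 4.67 and 14.6 RPM in BTAG cells at day 2 in aRB27, and 385.3 RPM against 11.5 RPM at day 4 in GK15. Both AG mid libraries lay above every other library used. The mean log2 difference was 4.30 ± 0.69 (limma, adjusted p = 0.000241), and CDH3 was the only 1 of the 10 whose call held with each library left out in turn. Each AG mid group was 1 library and borrowed its spread from the other groups of the fit. The GK15 AG mid library carries the title code MS134 and its BTAG counterpart MS162, so that code and gate cannot be told apart within GK15, while the aRB27 libraries share 1 code. With the code as a covariate 9 members were called, against 10.5% of all genes, and ITGA11 was not (limma, adjusted p = 0.0556).

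CDH11 was high in the same cells, with 378.4 RPM in AG mid cells against 31.6 and 30.2 RPM in BTAG cells at day 2 in aRB27, and 551.6 RPM against 16.5 RPM at day 4 in GK15. Its log2 difference was 4.28 ± 0.82 (limma, adjusted p = 0.00133), or 3.57 without GK15 AG mid day 4 replicate 1 or its BTAG counterpart (limma, adjusted p = 0.0732 and 0.0736). CDH5 had 4.54 and 0.75 RPM in AG mid cells, against 79.5 and 45.8 RPM at day 2 and 8.0 RPM at day 4 in BTAG cells (log2 difference -2.92 ± 0.57, limma adjusted p = 0.00146). CDH26 had 0 and 1.79 RPM in AG mid cells, against 17.5 and 8.29 RPM at day 2 and 11.8 RPM at day 4 in BTAG cells (-2.96 ± 0.55, limma adjusted p = 0.000905). CDH2 had 156.0 and 103.1 RPM in AG mid cells, against 585.5 and 345.5 RPM at day 2 and 273.3 RPM at day 4 in BTAG cells (-1.46 ± 0.32, limma adjusted p = 0.00432). Each setting had only 1 AG mid library, and GK15 only 1 BTAG library, so a lack of overlap between the gates says little for these 5 cadherins. The calls of CDH5, CDH26 and CDH2 were lost without aRB27 AG mid day 2 replicate 1 (limma, adjusted p = 0.11, 0.124 and 0.0928).

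The calls of the other AG mid members depended on single libraries. CLDN10 had 480.3 RPM in the AG mid library of day 2, against 0.58 and 15.1 RPM in BTAG cells, but 15.2 RPM against 9.5 RPM at day 4 in GK15, and its log2 difference of 3.60 ± 0.82 (limma, adjusted p = 0.0054) became 0.63 without aRB27 AG mid day 2 replicate 1 (limma, adjusted p = 0.906). CDH7 had 2.54 RPM in AG mid cells against 65.0 RPM in BTAG cells at day 4 in GK15, and 13.2 RPM against 26.9 and 16.6 RPM at day 2. Its difference of -2.43 ± 0.67 became -0.64 without either GK15 library (limma, adjusted p = 0.0194, then 0.887 or 0.884). CDH10 had 15.7 RPM in AG mid cells against 8.76 and 1.46 RPM in BTAG cells at day 2, and 27.6 RPM against 1.17 RPM at day 4. ITGAV had 134.1 RPM against 79.5 and 75.1 RPM at day 2, and 128.6 RPM against 30.3 RPM at day 4, in AG mid and BTAG cells. CDH10 and ITGAV were higher and ITGA11 lower in AG mid cells, the log2 values being 2.74 ± 0.80, 1.42 ± 0.45 and -2.38 ± 0.70 (limma, adjusted p = 0.0287, 0.0473 and 0.03). Without GK15 AG mid day 4 replicate 1 these were 1.77, 0.79 and -3.03 (limma, adjusted p = 0.545, 0.679 and 0.0845), and likewise without its BTAG counterpart (limma, adjusted p = 0.533, 0.675 and 0.0777). Without aRB27 AG mid day 2 replicate 1 they were 3.72, 2.05 and -1.74 (limma, adjusted p = 0.0696, 0.0762 and 0.468). Single aRB27 BTAG day 2 libraries also ended calls, replicate 1 those of CDH7 and ITGAV and replicate 2 those of CDH10, ITGA11 and ITGAV, at adjusted p 0.0571 to 0.0941 (limma). With every library as labelled, limma called 0 members, as 0 of all genes, and 3 members had an unadjusted p under 0.05.

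The 7 amnion markers summed to 1467 RPM in the AG mid library of day 2 and 1297 RPM in that of day 4, against 388.6 and 550.7 RPM and against 298.7 RPM in the BTAG cells of the same settings. The germ cell list summed to 575.6 and 151.7 RPM in the AG mid libraries, against 2710 to 3831 RPM in those BTAG cells. The mesenchyme list summed to 5459 RPM in the GK15 AG mid library, with 7 of 9 markers at 10 RPM or more, against 2919 RPM and 3 markers in its BTAG counterpart. In aRB27 it was 3453 RPM and 6 markers in AG mid cells, against 3215 and 3502 RPM and 3 markers in BTAG cells. The endothelial list summed to 185.0 RPM in AG mid cells against 41.5 RPM in BTAG cells of GK15, and to 68.9 RPM against 64.3 and 118.9 RPM in aRB27. The list of undifferentiated ESC markers summed to 351.3 RPM in AG mid cells against 3648 RPM in BTAG cells of GK15, and to 1418 RPM against 1972 and 2990 RPM in aRB27. The part of these lists in the adhesion genes of the gate was not tested.

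Genes that work with the members were read from 4 lists. Of the junction partners, which anchor cadherins and claudins, 20 of 25 were tested, and 3 rose and 4 fell in GK15 BTAG cells at day 6 against reporter ESC, where 24.8% of all genes were called. Their median log2 difference was -0.45, against 0.01 over all genes. EPCAM, an epithelial adhesion protein, had 246.2 ± 27.8 RPM in these cells (SD, n = 2), against 38.9 ± 22.0 RPM in reporter ESC (SD, n = 4), a log2 difference of 2.78 ± 0.43 (limma, adjusted p = 5.66e-05). The desmosomal plaque gene PKP2 fell by 1.96 ± 0.44, and PARD3, a cell polarity gene, by 1.74 ± 0.33 (limma, adjusted p = 0.00172 and 0.000393). In aRB27 at day 6 3 rose and 9 fell, at day 2 3 rose and 3 fell, and in GK15 at days 8 and 10 4 rose and 7 fell, against 25.9%, 16% and 31.1% of all genes called. Against BTAG cells, 4 rose and 0 fell in BT single cells and 5 rose and 0 fell in AG mid cells, where 15.1% and 11.1% of all genes were called.

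Integrin adaptors tie the beta tails to actin. At day 6 in GK15 1 of 17 rose and 3 fell, a share near the 24.8% of all genes called, with a list median of -0.50 against 0.01 over all genes, and with log2 differences of 1.05 ± 0.32 for FERMT1, a kindlin, -1.96 ± 0.33 for PARVA and -1.05 ± 0.36 for VCL, which codes for vinculin (limma, adjusted p = 0.017, 0.000132 and 0.0339). At days 8 and 10 1 rose and 5 fell, in aRB27 at day 6 2 rose and 5 fell, and at day 2 none rose and 1 fell. Of all genes, 31.1%, 25.9% and 16% were called in these comparisons. In AG mid against BTAG cells 1 rose and 1 fell, and in BT single against BTAG cells 3 rose and 2 fell, with a log2 difference of -4.23 ± 0.37 for FERMT1 (limma, adjusted p = 2.63e-07). The shares of all genes called in AG mid and BT single cells were 11.1% and 15.1%.

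Integrin ligands changed in both directions by large amounts. At day 6 in GK15 4 of 14 rose and 5 fell, against 14% of all genes higher and 10.8% lower, and the list median was -0.81 against 0.01 over all genes. The laminin alpha chain LAMA3 had 114.0 ± 13.7 RPM in GK15 BTAG cells (SD, n = 2), against 0.11 ± 0.22 RPM in reporter ESC (SD, n = 4), and FN1, the fibronectin bound by ITGA5, named here after its values were seen, had 8.76 ± 4.70 RPM against 131.1 ± 36.9 RPM. The log2 differences were 6.71 ± 0.45 and -3.80 ± 1.05 (limma, adjusted p = 1.99e-09 and 0.0093). SPP1, the osteopontin gene, differed by -7.66 ± 1.03 and NID1, a basement membrane gene, by -4.55 ± 0.54 (limma, adjusted p = 1.06e-05 and 2.5e-06). At day 6 in aRB27 4 rose and 5 fell, at day 2 4 rose and 3 fell, and at days 8 and 10 in GK15 4 rose and 6 fell. Of all genes, 25.9%, 16% and 31.1% were called in these comparisons. FN1 and LAMB1 were higher in BT single than in BTAG cells, by 4.52 ± 1.22 and 4.93 ± 0.65 (limma, adjusted p = 0.0135 and 2.33e-05), where 6 ligands rose and 2 fell, and in AG mid cells 6 rose and 2 fell. The shares of all genes called in BT single and AG mid cells were 15.1% and 11.1%.

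Of 14 factors known to regulate cadherin and claudin genes in transitions between epithelium and mesenchyme, 12 were tested, and 4 rose and 2 fell in GK15 at day 6, where 14% of all genes were called higher and 10.8% lower. The list median was 0.38, against 0.01 over all genes. GRHL1, ESRP1 and OVOL2, which favour epithelial programmes, differed by 4.16 ± 0.41, 3.16 ± 0.55 and 3.05 ± 0.43 (limma, adjusted p = 2.71e-07, 0.00019 and 1.82e-05). ZEB2, a repressor of CDH1, fell by 3.32 ± 0.55 (limma, adjusted p = 0.000101). CDH1 itself did not pass the filter in this fit. At day 6 in aRB27 3 rose and 3 fell, at day 2 4 rose and 1 fell, and at days 8 and 10 in GK15 5 rose and 3 fell. Of all genes, 25.9%, 16% and 31.1% were called in these comparisons. In BT single against BTAG cells 1 rose and 3 fell, and in AG mid against BTAG cells 2 rose and 2 fell, where 15.1% and 11.1% of all genes were called. In AG mid cells ZEB2 was higher by 4.51 ± 0.59 and OVOL2 lower, by -2.68 ± 0.47, than in BTAG cells (limma, adjusted p = 2.6e-05 and 0.000508).

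Before induction, reporter ESC differed from transgene-free ESC in 1 of 18 members tested, against 0.2% of all 9481 genes. CLDN6 had 59.3, 51.4, 43.1 and 78.1 RPM in reporter ESC and 345.0, 206.0, 132.6, 147.9 and 191.0 RPM in transgene-free ESC, with no overlap. The log2 difference was -1.75 ± 0.30 (limma, adjusted p = 0.0357). The call was lost without any 1 of the 4 reporter ESC libraries, and without transgene-free replicate 2, 4 or 5, at differences of -1.90 to -1.62 (limma, adjusted p 0.0726 to 0.152). Title code and cell line cannot be told apart from the group here. DESeq2 called 6 of the 18, 2 higher and 4 lower, against 3.33% of all genes. With edgeR 1 was called, against 0.253% of all genes.

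As a description of how members moved together, group means over the 13 groups of the reporter lines were ranked. The member most like CDH2 was CDH5, with a Spearman coefficient of 0.863, followed by ITGA11 at 0.812, CLDN6 at 0.681, ITGB1 at 0.659 and ITGA5 at 0.527. CLDN6 was most like ITGA5, at 0.725, and after CDH2 came CDH5 at 0.659, CDH11 at 0.637 and ITGA11 at 0.611. CDH1, with its few reads, was most like CLDN10, at 0.842, then CDH10 at 0.613, ITGAE at 0.569, CDH3 at 0.549 and CDH11 at 0.5. These groups share the ESC baseline, 1 cell line for all induced cells and the RPM scale.

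In mouse, 12 of the 72 members passed the filter and 23 were listed at 0 in all 4 libraries. Between day 6 and day 4, 1 of the 12 was called, against 2.59% of all 8255 genes. Cdh2 had 2.52 and 3.63 RPM at day 6 and 18.1 and 11.5 RPM at day 4, without overlap, and a log2 difference of -1.94 ± 0.39 (limma, adjusted p = 0.0258). Without day 6 replicate 1 or 2 the call was lost, at -1.74 and -2.13 (limma, adjusted p = 0.415 and 0.313), and without either day 4 library Cdh2 no longer passed the filter. Itgb5 was called without day 4 replicate 2, and DESeq2 called 0 members.

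Cdh1 had 156.6 and 192.1 RPM at day 6 and 186.8 and 222.3 RPM at day 4 in mouse cells, and the days overlapped. Cldn7, a claudin partner of EPCAM, had 85.2 and 71.4 RPM at day 6 and 93.2 and 118.0 RPM at day 4. Itgb3 had 52.9 and 36.7 RPM at day 6 and 22.5 and 36.7 RPM at day 4. None of these 3 was called. In monkey BTAG cells CDH1 had 0 to 1.21 RPM, and over all monkey libraries used CLDN7 reached 1.08 RPM and ITGB3 was listed at 0. Cdh23, a cadherin of hair cell links, had 195.6 and 179.2 RPM at day 6 and 155.0 and 159.1 RPM at day 4, and Itga6 had 14.6 to 15.9 RPM over both days. Cldn6 had 29.4 and 24.2 RPM at day 6 and 35.8 and 37.6 RPM at day 4. The 2 species have separate tables and annotations, so the difference between them was not tested. Among the partners, the basement membrane gene Nid1 was the only one called, with a log2 difference of 1.53 ± 0.36 (limma, adjusted p = 0.0422).

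**Figure D5:**
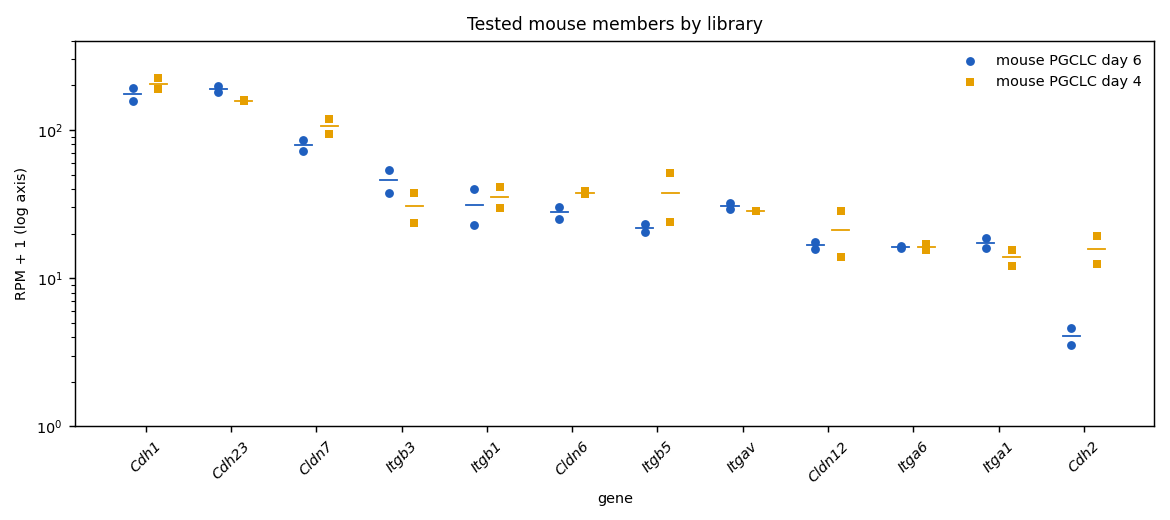
Levels of the 12 tested mouse members by library (points), as RPM + 1 on a log axis, with day 6 left of day 4 for each gene. Cdh2 is lower at day 6 (2.52 and 3.63 RPM) than at day 4 (18.1 and 11.5 RPM), and Cdh1 overlaps between the days.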

How the data were processed

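The levels are the authors' deposited RPM values, 1 table per species, per the file headers and names. The submitters' processing notes list cutadapt 1.3, TopHat 1.4.1 and Cufflinks 2.2.0 without roles, and GRCm38 for mouse. The monkey build, the counting and its use of strand are not given in the sources used here. Low values of each library were whole multiples of 1 read: within 0.1 steps, 99.4% to 99.8% of values up to 100 steps were whole, which allowed count tests as alternatives. Mouse libraries held 2263000 to 2478000 reads.

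Tests used limma 3.58.1 (R 4.3.3) with an intensity trend on log2(RPM + 1), without spike-ins. The 24 reporter-line libraries were fitted together with 1 mean per group, so a lone library borrowed its spread. The trend used 15 libraries and was called at a slope of at least 1 log2 unit per 8 days. Day 2 averages both media. SE are those of the fit. Alternatives changed the pseudocount (0.1 or 10), the filter (none, or 20 RPM on average), the scaling (median of ratios, or quantiles), the threshold (adjusted p only, or a log2 difference of 2), the libraries (compared groups only, every library as labelled, or each left out) and the tool (edgeR 4.0.16 and DESeq2 1.42.0 on recovered reads), or added the title code as covariate. Steps were tested on simulated data.

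Named with values were 19 preset members, called members up to 8 per direction, and called partners up to 4 per list. Members and lists were chosen with earlier results of these data known. RefSeq names (T2T-MFA8v1.1) were matched by gene ID for 72 of 73 members.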

Additional observations from a re-analysis of the deposited data

Results flagged for a closer look

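In 52 groups of 4 or 5 ESC libraries and a named member, 9 held a library far from the others, by a gap to the nearest library over the whole range above Dixon's critical value. Chance gives about 1 in 20.

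Replicate 2 of transgene-free ESC, a CMK6 library, accounted for 3 of them. It had 59.2 RPM of CLDN3, against 4.55 to 13.0 RPM in the others (ratio 0.845), 42.6 RPM of CLDN12 against 73.7 to 81.9 RPM (0.792), and 39.7 RPM of ITGA5 against 77.1 to 90.8 RPM (0.731). Replicate 5, of the line 22, had 58.6 RPM of CDH10, against 1.8 to 16.3 RPM in the others (0.745).

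Among reporter ESC, replicate 2 had 2.16 RPM of ITGA1 against 9.12 to 9.23 RPM (0.984) and 4.32 RPM of CDH1 against 0.44 to 0.88 RPM (0.887). Replicate 4 had 275.8 RPM of CDH2, against 126.0 to 145.9 RPM (0.867). CLDN11 was at 0.44 RPM in replicate 3 and ITGA11 at 0.15 RPM in replicate 1, each listed at 0 in the others (1.0 and 1.0), where 1 read was worth 0.44 and 0.147 RPM.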

How the results depend on the processing

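No paired analysis was possible because the labels give no replicate numbers and tie no library of one group to one of another. Counts of called members moved as follows, and the cause was not tested beyond what a setting itself removes. With a mean of at least 20 RPM, which tests fewer members, they were 5 for GK15 day 6, 6 for aRB27 day 6, 3 for day 2, 7 for GK15 days 8 and 10, 5 for AG mid, 6 for the trend and 0 for mouse. Of all genes, 21.2%, 22.3%, 14%, 26.1%, 10.1%, 17.7% and 2.02% were then called. A pseudocount of 10 gave 6 for aRB27 day 6, 1 for aRB27 against GK15 and 0 for mouse, and 0.1 gave 4 for BT single and 6 for AG mid. The shares of all genes called were 15.2%, 0.206% and 1.14% with 10, and 13.4% and 8.85% with 0.1. No filter gave 19 for GK15 days 8 and 10, 0 for ESC and 0 for mouse, against 19.1%, 0.0739% and 0% of all genes. ESC had 0 with median-of-ratios scaling and 0 at a log2 difference of 2, against 0.148% and 0.116% of all genes. Mouse had 0 at a log2 difference of 2 as well, against 0.46% of all genes. DESeq2 gave 6 for ESC and 0 for mouse, against 3.33% and 1.67% of all genes. Every library as labelled gave 0 for GK15 day 6, 1 for day 2, 1 for BT single and 0 for AG mid. Of all genes, 0%, 1.24%, 3.68% and 0% were then called. The share of all genes called moved with the other settings too.

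With each library left out in turn, the counts were 10 to 11 for GK15 day 6, 10 to 12 for aRB27 day 6, 7 to 9 for day 2, 12 to 12 for GK15 days 8 and 10, 0 to 1 for aRB27 against GK15, 3 to 5 for BT single, 4 to 9 for AG mid, 6 to 15 for the trend, 0 to 2 for ESC and 0 to 1 for mouse. A lone remaining library is assumed to vary like the other groups. Of the alternatives in which a named member was still tested, 1282 kept direction and side of the threshold, 173 lost the call and none changed sign. A member that failed the filter of an alternative was not counted there, so 173 leaves out calls lost in that way. Quantile normalization moved the day 2 median of all genes to -0.06. The title code could not be fitted in the ESC comparison.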

Other observations

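The libraries left out held these member levels, by their labels. The left-out GK15 BTAG library of day 4 had 284.6 RPM of CDH3 and 927.9 RPM of CDH11, against 11.5 and 16.5 RPM in the one used, and that of day 6 had 117.0 RPM of CDH6 and 661.9 RPM of ITGB1, against 0 to 1.25 RPM and 244.4 to 277.9 RPM. The left-out GK15 AG mid library of day 4 had 4.24 RPM of CDH3 and 0.94 RPM of CDH11, against 385.3 and 551.6 RPM in the one used. The left-out reporter ESC library had 27.6 RPM of CDH26, against 0 to 2.2 RPM in the 4 used. In the left-out aRB27 BTAG libraries of days 6, 8 and 10, CDH6 had 0, 0.41 and 0 RPM, ITGB1 250.3, 238.3 and 304.6 RPM and ITGA9 26.3, 6.18 and 23.5 RPM.

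Some members under the filter reached 10 RPM in a single library. CDH17, a cadherin of liver and intestine, had 10.9 RPM, and CLDN4 23.6 RPM, in the BT single library of day 2, where all 10 endoderm markers had 10 RPM or more and their sum was 2224 RPM. CLDN1, a sealing claudin, reached 15.9 RPM in a BT single library of day 4. ITGB2, the beta subunit of leukocytes, reached 10.6 RPM in an aRB27 BTAG library of day 6, and ITGB8, which binds latent TGF-beta with ITGAV, 10.4 RPM in a GK15 BTAG library of day 6. ITGA8, which passed the filter with 2 libraries, had 28.7 RPM in the GK15 AG mid library of day 4 and 11.3 RPM in the BT single library of day 2.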
